A study of Mus musculus with 6 samples.

Results

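This account covers 106 genes of voltage-gated and potassium channels in the cochlear lateral wall of young and old mice. Members were chosen by name, as genes whose single symbol on the array begins with Kcn, with Scn and a digit, or with Cacn. The 13 potassium channel genes of the stria and of the two-pore and BK groups named in the rule were left out. The members are part of 18193 genes measured, each represented by the probe set with the highest mean over all 6 arrays. They encode pore subunits of potassium, sodium and calcium channels and the subunits that accompany them. The name rule also took 3 noncoding RNAs, Kcnq1ot1, Kcnmb4os1 and Kcnmb4os2.

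The tissue was microdissected from CBA/CaJ mice, an inbred strain bred at the study's institution in low-noise housing, and both sexes were used. Young adult mice were 1 to 3 months old and old mice were 1.5 years old, with 3 arrays per age, and neither group carried a transgene or received a treatment that the labels name. The labels do not say whether a sample was 1 animal or a pool, so p-values reflect only how much these samples varied, which may be technical. Values are log2 signals, differences are old minus young on that scale and are given ± the standard error of limma, and "adjusted p" is limma's p after Benjamini-Hochberg adjustment over 45037 probe sets.

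The lateral wall holds the stria vascularis, which secretes potassium into endolymph, and the spiral ligament, whose fibrocytes return it. Voltage-gated channels open when the membrane is depolarised, calcium-activated potassium channels open when calcium rises inside the cell, and inward rectifiers and two-pore channels help set the resting potential. Auxiliary subunits carry no current of their own and change the gating or surface number of the pore they bind. Most voltage-gated sodium and calcium channels are known from nerve, muscle and hair cells.

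The labelled tissue was checked against marker genes. All 5 marginal cell and all 5 fibrocyte markers lay above 6.28, the median signal over the array's probe sets, as did 4 of 5 intermediate cell markers. Of 12 neuron markers 2 lay above that median, and of 6 hair cell markers 1 did. Several bone markers differed with age. Of 5 osteoblast and osteocyte markers, all above that median, Dmp1, Phex and Mepe fell with limma, and the median difference was -1.41. Ibsp did not pass (-2.25 ± 0.59, limma adjusted p = 0.0690), and Sp7 was at -0.04 ± 0.10 with overlapping groups. The summed linear signal of the 5 markers ranged over 5444 to 6600 (young) and 2447 to 3185 (old), and Dmp1 was the brightest of them. Their part in the channel results was not tested. The array labelled young replicate 2 had an Xist signal of 6.06 where the other 5 arrays had 11.95 to 12.65, so its sex make-up stood apart, and results that rest on it are also given without it. The excess of 3′ over 5′ control probe sets for Gapdh was 1.07 to 1.25 (young) and 1.26 to 1.45 (old; exact 2-sided permutation p = 0.1, the smallest that 3 against 3 can give). For Actb it was 1.46 to 1.60 and 1.39 to 1.84 (exact 2-sided permutation p = 0.4). The part of sex make-up and of RNA integrity in the results was not tested.

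Few of these channel genes differed with age, and none by as much as 2-fold (1 log2 unit), a size that 0.984% of all genes reached. With limma, 6 of 106 passed an adjusted p of 0.05, which is 5.66%, beside 4.78% of all 18193 genes and 4.71% of all probe sets, so the share was near the background. All 6 rose in old tissue (2.45% of all genes were called higher) and 0 fell (2.33% of all genes were called lower). At an unadjusted limma p under 0.05, 8 were higher and 11 lower, 19 of 106 beside 20.7% of all genes. The 3 old values lay entirely above the young values for 10 members and entirely below them for 14, which is 22.6% of members in either direction. Over all genes this held for 26.7%, with 17.0% higher and 9.7% lower. The median difference was -0.0067 over the members and 0.03 over all genes, and 48 differences were above 0 and 57 below. For all 106 members the unadjusted 95% interval of the difference lay within 1 log2 unit of 0, as it did for 97.4% of genes. For 82 members (77.4%) it lay within 0.5, or 1.41-fold, as it did for 81.4% of genes.

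**Figure D1:**
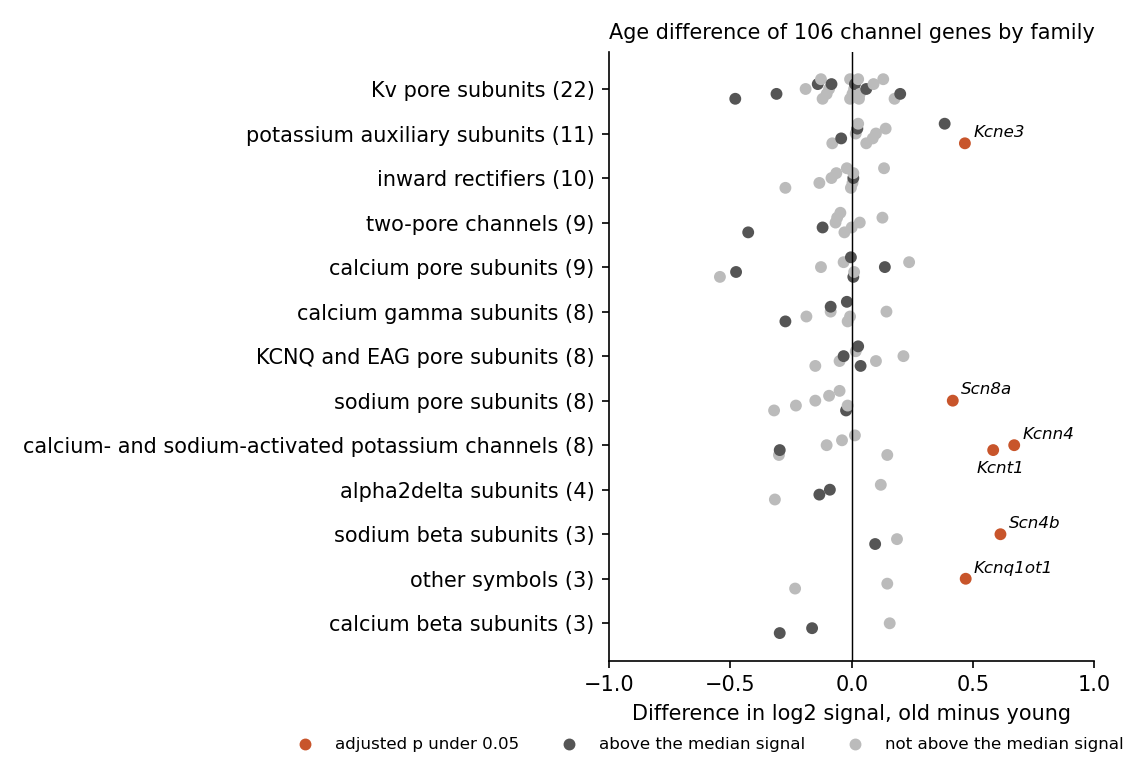
Each point is 1 of 106 channel genes, placed by its difference in log2 signal (old minus young, horizontal axis) and by family (vertical axis, number of genes in brackets). The 6 genes past an adjusted p of 0.05 are named and lie between 0.42 and 0.67, and most of the other points crowd around 0.

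Many members gave weak signals. Of the 106, 35 had a mean over all 6 arrays above the median signal, which is 33.0%, where 63.7% of all genes did, and member means ran from 3.01 to 10.77. Of these 35, 5 were called, a larger share than the 6.38% of genes above the median that were called. Of the other 71, Kcne3 was called, where 74 of 6605 genes not above the median were called higher and 57 lower. The difference between these shares was not tested. Signal over background was not examined, so for weak probe sets the size of a difference is uncertain. Signals of different probe sets are not compared here as RNA levels.

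The genes that rose were Scn4b, Kcnt1, Kcnq1ot1, Kcnn4, Kcne3 and Scn8a. To show the regulatory sequence beside the values, the 250 bases before the annotated start are printed for the 4 of them that lay above the median signal and had a window in the RefSeq promoter table (build GRCm38.p6), 5′ to 3′ on the gene's strand. Kcnt1 had no entry. The Scn4b window is chr9:45138374-45138623 (+), Kcnn4 is chr7:24370013-24370262 (+), Kcnq1ot1 is chr7:143296548-143296797 (-), and the first of 2 starts of Scn8a is chr15:100870395-100870644 (+). Capitals mark matches, on either strand, to the motifs named after the sequences.
Scn4b: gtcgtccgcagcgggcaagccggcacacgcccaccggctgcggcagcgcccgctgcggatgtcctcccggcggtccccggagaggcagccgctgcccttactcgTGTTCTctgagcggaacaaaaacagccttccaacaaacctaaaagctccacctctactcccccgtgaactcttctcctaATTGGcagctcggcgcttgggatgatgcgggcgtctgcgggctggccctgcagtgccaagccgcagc
Kcnn4: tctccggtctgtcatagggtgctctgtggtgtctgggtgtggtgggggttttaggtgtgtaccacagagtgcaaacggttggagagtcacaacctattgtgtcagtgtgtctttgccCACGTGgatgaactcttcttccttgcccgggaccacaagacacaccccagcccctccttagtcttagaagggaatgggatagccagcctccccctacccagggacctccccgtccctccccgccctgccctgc
Kcnq1ot1: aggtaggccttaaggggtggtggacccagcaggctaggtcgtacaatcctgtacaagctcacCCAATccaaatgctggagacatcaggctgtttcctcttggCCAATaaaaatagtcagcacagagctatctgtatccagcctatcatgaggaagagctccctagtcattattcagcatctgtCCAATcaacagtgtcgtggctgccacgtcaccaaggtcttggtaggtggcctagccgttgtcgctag
Scn8a: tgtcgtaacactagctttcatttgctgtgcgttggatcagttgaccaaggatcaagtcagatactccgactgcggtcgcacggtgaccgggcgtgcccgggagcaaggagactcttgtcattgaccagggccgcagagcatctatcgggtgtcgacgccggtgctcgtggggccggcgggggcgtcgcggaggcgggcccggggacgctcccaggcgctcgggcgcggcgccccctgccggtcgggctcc

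Promoter motifs were searched by their letters on both strands. TATAAA stood for the TATA box and CCAAT for the CCAAT box. The cAMP response element was searched as TGACGTCA. AP-1 sites were searched as TGANTCA and Egr sites as GCGTGGGCG. The E-box of clock factors was searched as CACGTG. The glucocorticoid receptor arm was searched as AGAACA. The left arm of the site of the neuronal repressor REST was searched as TTCAGCACC. No matches overlapped in the printed windows. The Scn4b window held 1 CCAAT box and 1 AGAACA match, which occur in 33.8% and 16.1% of the 32851 windows in the table. The Kcnn4 window held 1 CACGTG, found in 6.02% of windows, and the Kcnq1ot1 window held 3 CCAAT boxes. None of the letters searched were in the first Scn8a window, and the second start, chr15:100936021-100936270, had 1 AGAACA match. Kcne3 also has 2 starts, and the window at chr7:100176420-100176669 held 2 CCAAT boxes and 1 AP-1 match (6.75% of windows), while the other held none. G and C made up 68.0% of the printed Scn8a window and 66.0% of that of Scn4b, against a median of 52.4% over all windows, 58.8% for Kcnn4 and 51.2% for Kcnq1ot1. The matches are a description of these letters and were not tied to the signals by any test, and no motif was in all 4 printed windows.

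Sodium channels gave 2 of the 6 calls. Scn4b encodes a beta subunit that associates with sodium channel pores and takes part in resurgent current in neurons. Its log2 signals were 6.51, 6.57 and 6.66 in young and 7.24, 7.21 and 7.13 in old arrays. The lowest old value was 0.47 above the highest young value, the old arrays being tightly grouped. The difference was 0.61 ± 0.08, or 1.53-fold (limma adjusted p = 0.00614), and the gene also passed in each of 6 fits with 1 array left out (adjusted p 0.0105 to 0.0288). Scn8a encodes Nav1.6, the sodium channel of nodes of Ranvier and axon initial segments. Its signals were 6.97, 6.96 and 7.23 in young and 7.48, 7.50 and 7.43 in old arrays. Young replicate 3 lay nearest to the old arrays, and the groups did not overlap. The difference was 0.42 ± 0.09 or 1.33-fold (limma adjusted p = 0.0444). The Scn8a call was lost on leaving out any array except young replicate 3 (limma adjusted p 0.0431 to 0.141 over the 6 fits). Without young replicate 2 the difference was 0.37 (adjusted p = 0.0732). The call was also lost with cyclic loess (0.0513), with an intensity trend and robust variance (0.0507) and with the replicate number as a block (0.0674). With the mean of its 5 probe sets it was lost too (difference 0.20, adjusted p = 0.235).

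Of the other sodium pore genes 7 of 7 did not pass. Their differences were all below 0, from -0.32 to -0.02, where 7488 of all 18193 genes lay below 0. Scn7a, an atypical sodium channel of glia and sensory organs, was at -0.02 ± 0.13 (95% interval -0.31 to 0.27). Scn1a, which encodes Nav1.1 and was singled out after its values were seen, had signals of 5.31, 5.32 and 5.32 in young and 5.03, 4.84 and 5.12 in old arrays (difference -0.32 ± 0.09, limma adjusted p = 0.0891). Both groups lay below the median signal. The second Scn1a probe set was at -0.0033 ± 0.08 and the third at 0 ± 0.08, both with overlapping groups. The mean of the 3 was at -0.11 (limma adjusted p = 0.363). The beta subunit gene Scn2b was at 0.10 ± 0.10. Neuron markers are given here because these channels are known from nerve. Of 12 markers 0 passed with limma, 3 had an unadjusted p under 0.05 (2 higher, 1 lower), and their summed linear signal ranged over 536 to 781 (young) and 504 to 763 (old). Of 4 Schwann cell markers Sox10 was called higher (0.38 ± 0.08, limma adjusted p = 0.0382) and Pmp22 lower (-0.51 ± 0.10, adjusted p = 0.0265). The myelin genes Mbp and Mag were at 0.02 ± 0.10 and -0.04 ± 0.10, both with overlapping groups. The summed signal of the 4 was 6533 to 7380 (young) and 6363 to 6778 (old), and Pmp22 and Sox10 were the brightest of them. In bulk tissue, a change in the number of cells of a type and a change in RNA per cell cannot be told apart.

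**Figure D2:**
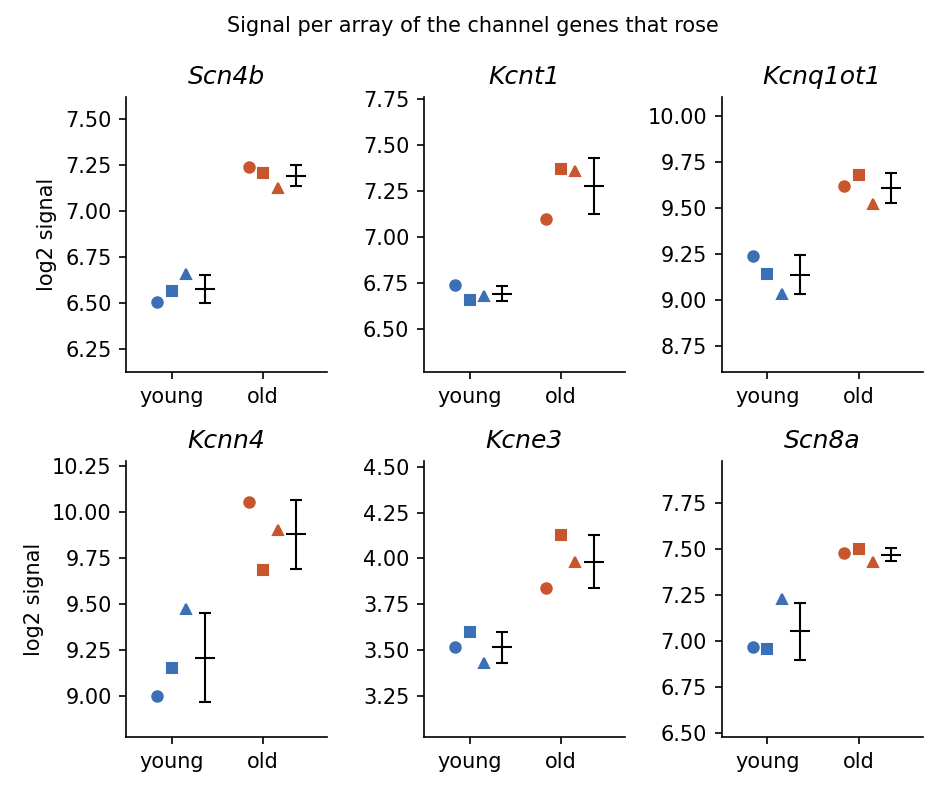
Log2 signal on each array (points, with circles, squares and triangles for replicates 1, 2 and 3) of the 6 genes that rose, young in blue and old in orange, with the group mean and SD (n = 3) as black bars. Every panel spans 1.5 log2 units, and in each the lowest old point lies above the highest young point.

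Calcium- and sodium-activated potassium channels gave another 2 calls among 8 measured, where 4.78% of all genes were called. These counts are too small to read as a trait of the family. Kcnn4 encodes the intermediate-conductance calcium-activated channel of red cells, lymphocytes, macrophages and secretory epithelia. Its signals were 9.00, 9.15 and 9.47 in young and 10.05, 9.68 and 9.90 in old arrays. The groups did not overlap, although young replicate 3 and old replicate 2 were 0.21 apart. The difference of 0.67 ± 0.14, or 1.59-fold (limma adjusted p = 0.0342), was the highest among the members. Without young replicate 1, young replicate 2, old replicate 1 or old replicate 3 it did not pass (adjusted p up to 0.129, lowest 0.0398 over the 6 fits). Leaving out young replicate 2 gave a difference of 0.64 (limma adjusted p = 0.0589). The second Kcnn4 probe set was at 0.54 ± 0.21 with overlapping groups (limma adjusted p = 0.200), and the mean of both was at 0.61 and did not pass (adjusted p = 0.0799). Of 7 macrophage markers Cd68 and Lyz2 were called higher with limma, and 5 had an unadjusted p under 0.05 (all higher). Csf1r was at -0.08 ± 0.08 with overlapping groups. The summed signal of the 7 ranged over 3368 to 3854 (young) and 6402 to 7058 (old), and Lyz2 was the brightest of them. The red cell list, with 1 of 3 called lower, had sums of 182 to 295 (young) and 147 to 154 (old). For the marginal cells of the stria, 0 of 5 markers were called and 2 had an unadjusted p under 0.05 (both higher). Their sums were 34482 to 35860 (young) and 37041 to 38566 (old). The part of any of these cell types in the Kcnn4 value was not tested.

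Kcnt1 encodes Slack, a potassium channel that opens when sodium enters the cell. Its signals were 6.74, 6.66 and 6.68 in young and 7.10, 7.37 and 7.36 in old arrays. All young values lay within 0.08 of each other, and old replicate 1 was the lowest old value. The difference was 0.58 ± 0.09, or 1.50-fold (limma adjusted p = 0.0145), and the call was lost without young replicate 3 or old replicate 3 (adjusted p 0.0671 and 0.0779). A second Kcnt1 probe set also passed, at 0.41 ± 0.08 (limma adjusted p = 0.0298), and the third was at 0.32 ± 0.11 (adjusted p = 0.142). Groups did not overlap in any of the 3. Its relative Kcnt2, named after its values were seen, was at -0.30 ± 0.12 (limma adjusted p = 0.199), with signals of 3.25, 3.35 and 3.63 in young and 2.98, 3.23 and 3.12 in old arrays, below the median signal.

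Kcnn2 encodes SK2, the small-conductance calcium-activated channel that shapes efferent inhibition in hair cells. Its signals were 11.09, 10.84 and 10.83 in young and 10.70, 10.55 and 10.62 in old arrays. The old arrays were lower without overlap, but the difference of -0.30 ± 0.10 did not pass (limma adjusted p = 0.130). The other 4 genes of this family, Kcnn1, Kcnn3, Kcnmb2 and Kcnu1, did not pass and lay between -0.10 and 0.15.

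**Figure D3:**
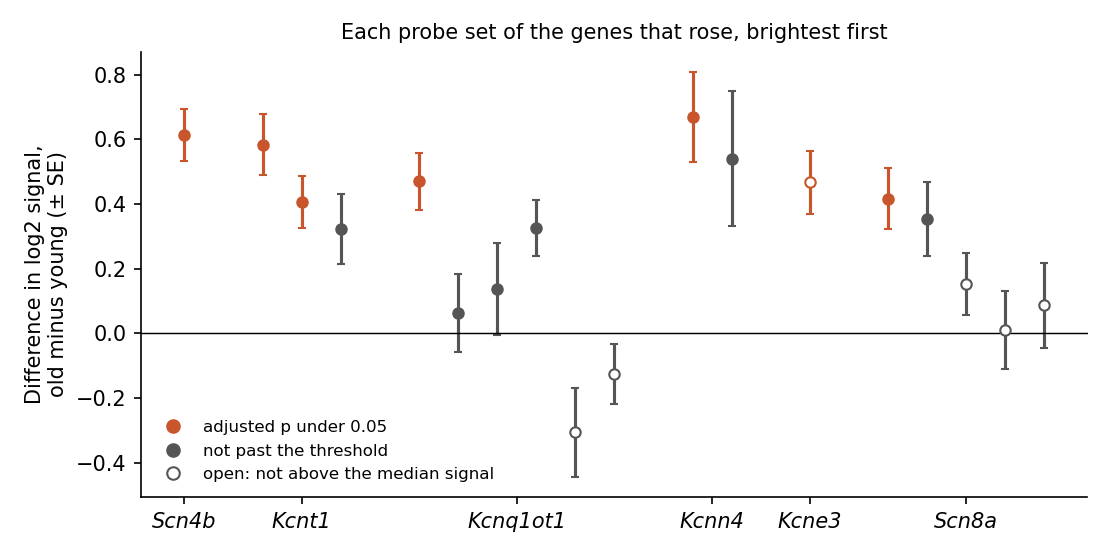
Difference in log2 signal (old minus young, ± standard error of limma) of every probe set of the 6 genes that rose, ordered within a gene by mean signal. All probe sets of Kcnt1 and Kcnn4 lie above 0, whereas those of Kcnq1ot1 run from -0.31 to 0.47 and those of Scn8a from 0.01 to 0.42.

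Among 11 potassium channel auxiliary genes, Kcne3 was called. Its protein, a single-span subunit, holds Kcnq1 channels open in intestinal and airway epithelia. Signals were 3.52, 3.60 and 3.43 in young and 3.84, 4.13 and 3.98 in old arrays. The groups did not overlap, and the mean signal exceeded only 9.0% of probe sets, so the difference of 0.47 ± 0.10 (limma adjusted p = 0.0342) was measured near the bottom of the scale. It was lost without young replicate 1, young replicate 3, old replicate 2 or old replicate 3 (adjusted p up to 0.131). Kcnab1, a cytoplasmic beta subunit that speeds inactivation of Shaker-type channels, had signals of 10.18, 10.38 and 10.44 in young and 10.97, 10.67 and 10.51 in old arrays. Old values were all higher, with old replicate 3 only 0.07 above young replicate 3, and the difference of 0.38 ± 0.13 did not pass (limma adjusted p = 0.140). The second Kcnab1 probe set was at 0 ± 0.10 with overlapping groups, and the mean of both was at 0.19 (limma adjusted p = 0.272). Kcne4, an inhibitory relative of Kcne3, was at -0.04 ± 0.13 (95% interval -0.33 to 0.24).

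Kcnq1ot1 is an imprinted noncoding RNA transcribed antisense to Kcnq1 from the paternal chromosome, and it silences neighbouring genes in cis. Its brightest probe set had signals of 9.24, 9.14 and 9.03 in young and 9.62, 9.68 and 9.52 in old arrays. The groups were apart by 0.28, and the difference was 0.47 ± 0.09 or 1.39-fold (limma adjusted p = 0.0247). The other 5 probe sets with this symbol did not pass, and which transcripts the probe sets of Kcnq1ot1 and of Scn8a detect was not examined. The next in signal was at 0.06 ± 0.12 with overlapping groups (9.19, 9.35 and 9.16 in young, 9.08, 9.53 and 9.28 in old arrays). The third was at 0.14 ± 0.14, also with overlap. A dimmer one was apart in the same direction, at 0.33 ± 0.09 (limma adjusted p = 0.0743), and 2 weak ones were at -0.31 ± 0.14 and -0.13 ± 0.09. Averaged over its 6 probe sets the difference was 0.09 (limma adjusted p = 0.524), and the call was lost without young replicate 3 or any old array (adjusted p up to 0.0931). Kcnq1, outside the name rule, was at 0.03 ± 0.11. Kcnmb4os2, an RNA antisense to Kcnmb4, was at 0.15 ± 0.11.

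**Figure D4:**
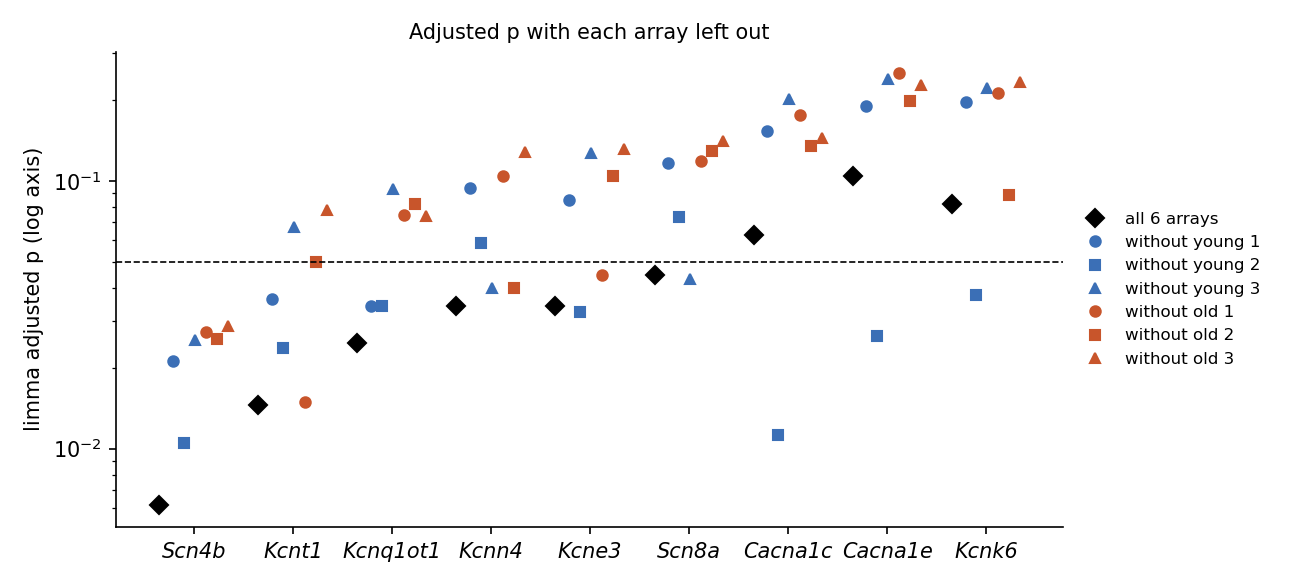
Limma adjusted p (vertical log axis) of the 6 genes that rose and of the 3 genes called lower without young replicate 2. Black diamonds show all 6 arrays, and other points each array left out (blue for young, orange for old, shape for the replicate). The dashed line is at 0.05. Scn4b stays below the line in every fit. Cacna1c, Cacna1e and Kcnk6, shown as the genes called lower without young replicate 2, fall below it only in that fit.

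Of 9 calcium channel pore genes 0 passed with limma, and 3 had an unadjusted p under 0.05. Cacna1c encodes Cav1.2, the L-type channel of smooth and cardiac muscle. Its signals were 6.27, 5.74 and 6.11 in young and 5.36, 5.53 and 5.60 in old arrays, with young replicate 2 nearest to the old ones. The difference was -0.54 ± 0.14 (limma adjusted p = 0.0629), and -0.69 without young replicate 2, where it passed (adjusted p = 0.0113). Leaving out any other array gave a limma adjusted p of 0.135 to 0.203. The second Cacna1c probe set was at 0.14 ± 0.10 with overlapping groups, and the mean of both was at -0.20 (limma adjusted p = 0.312). Beside Cacna1c, the smooth muscle and pericyte markers Acta2 and Tagln fell (-0.74 ± 0.10 and -1.23 ± 0.14, limma adjusted p = 0.00612 and 0.00393), 2 of 7 on that list. The other 5 did not pass and lay between -0.19 and -0.03 with overlapping groups. The summed signal of the 7, of which Rgs5 was the brightest, was 5213 to 7035 (young) and 4844 to 5276 (old). The part of these cells in the Cacna1c value was not tested. Cacna1e, the R-type channel gene, had signals of 9.03, 8.43 and 8.69 in young and 8.13, 8.28 and 8.31 in old arrays, a difference of -0.48 ± 0.14 (limma adjusted p = 0.105). Without young replicate 2, again the young value nearest to the old arrays, it was -0.62 and passed (adjusted p = 0.0263). The second Cacna1e probe set was at 0.05 ± 0.10 with overlapping groups, and the mean of both was at -0.21 (limma adjusted p = 0.357).

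Cacna1d encodes Cav1.3, the L-type channel of inner hair cells. Its signals were 8.31, 8.75 and 9.07 in young and 8.63, 8.95 and 8.57 in old arrays, which overlapped fully (difference 0.0067 ± 0.18, 95% interval -0.41 to 0.43). The T-type gene Cacna1h was at 0.24 ± 0.10 (limma adjusted p = 0.238), and Cacna1s, the pore of skeletal muscle, was at 0.01 ± 0.12, both below the median signal. Skeletal muscle markers had 0 of 10 called with limma and 1 with an unadjusted p under 0.05.

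The calcium channel subunits that traffic and tune the pore did not pass in any of 15 cases. Cacna2d1, an alpha2delta subunit, had signals of 10.07, 10.18 and 10.26 in young and 10.04, 10.02 and 10.05 in old arrays. The groups were apart by 0.02, and the difference was -0.13 ± 0.08 (limma adjusted p = 0.437). Cacna2d2 was at -0.09 ± 0.12, and Cacna2d3 was at -0.32 ± 0.11 (limma adjusted p = 0.152). Of the cytoplasmic beta subunits, Cacnb4 had signals of 8.57, 8.67 and 8.90 in young and 8.46, 8.33 and 8.46 in old arrays (difference -0.30 ± 0.10, limma adjusted p = 0.150, and 0.0447 with array weights). Cacnb2, a beta subunit needed for Cav1.3 currents in hair cells, was at -0.16 ± 0.12 (95% interval -0.43 to 0.11). In the gamma family, several of whose members traffic glutamate receptors, Cacng4, Cacng7 and Cacng8 were at -0.27 ± 0.17, -0.09 ± 0.11 and -0.19 ± 0.11.

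The 22 voltage-gated potassium pore genes of the Kv families had 0 calls with limma, 2 with an unadjusted p under 0.05, and a median difference of -0.0017. Kcns3 encodes a silent subunit that modifies Kv2 channels. Its signals were 6.66, 7.02 and 6.83 in young and 6.13, 6.50 and 6.44 in old arrays, so each old value was below the lowest young value (difference -0.48 ± 0.13, limma adjusted p = 0.0730). With the replicate number as a block, which these samples do not establish as a pairing, the adjusted p was 0.0309. Kcnc4, a fast Kv3 channel gene, had signals of 7.07, 7.06 and 7.05 in young and 6.80, 6.83 and 6.62 in old arrays. The young arrays hardly varied, and the difference was -0.31 ± 0.08 (limma adjusted p = 0.0784). The second Kcnc4 probe set was at 0.03 ± 0.10. Kcnc1, another Kv3 gene, was at 0.20 ± 0.11 (limma adjusted p = 0.372), and the silent subunit gene Kcng4 was at 0.06 ± 0.10.

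In the KCNQ and EAG families, which include the M-current and ERG channels, 0 of 8 passed with limma and 0 had an unadjusted p under 0.05. Kcnq3 was at 0.04 ± 0.09, Kcnh3 at -0.03 ± 0.10 and Kcnq5 at 0.21 ± 0.17. Their 95% intervals were -0.16 to 0.23, -0.27 to 0.20 and -0.17 to 0.60.

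Inward rectifiers outside the strial set also showed 0 calls among 10 with limma, and 1 unadjusted p under 0.05. Kcnj11, the pore of ATP-sensitive potassium channels, had signals of 7.39, 7.06 and 7.28 in young and 7.39, 7.20 and 7.16 in old arrays (difference 0.0067 ± 0.11, 95% interval -0.24 to 0.25). Kcnj2, the classical strong rectifier Kir2.1, gave signals of 3.39 to 3.52 (young) and 3.40 to 3.54 (old), which overlapped. Kcnj4 was at -0.27 ± 0.08 without overlap (limma adjusted p = 0.105), and Kcnj9 and Kcnj14 were at 0.13 ± 0.13 and -0.08 ± 0.10.

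Two-pore channels other than those left out gave 0 calls among 9 with limma and 1 unadjusted p under 0.05. This was Kcnk6, or TWIK-2, with signals of 7.16, 6.81 and 7.02 in young and 6.41, 6.73 and 6.57 in old arrays. Young replicate 2 and old replicate 2 were 0.08 apart, and the difference was -0.43 ± 0.12 (limma adjusted p = 0.0823). It was -0.52 without young replicate 2 and passed (adjusted p = 0.0374). Kcnk7 was at -0.12 ± 0.10. Of the 13 channel genes left out by name, 1 was called higher and 0 lower, beside 2.45% and 2.33% of all genes.

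**Figure D5:**
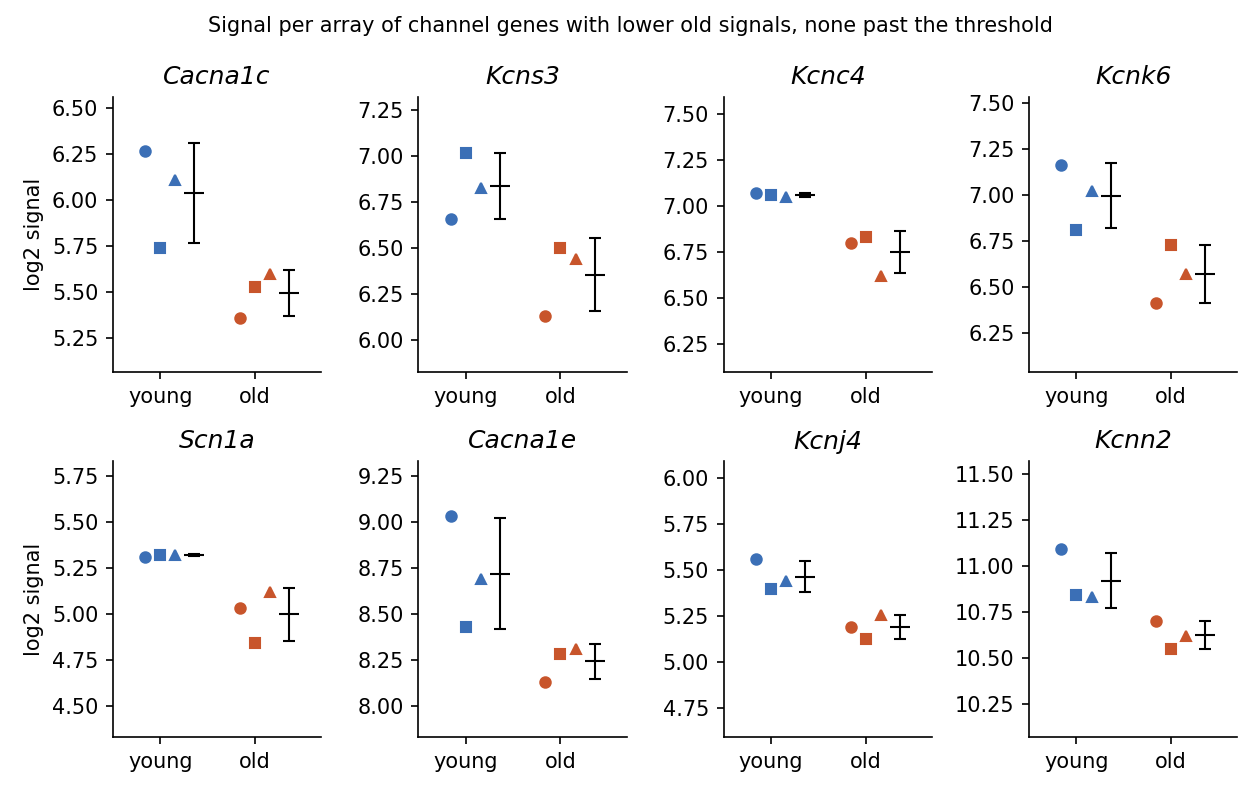
Log2 signal on each array (points, shapes for replicates as before) of the 8 genes with differences below 0 and the smallest adjusted p, young in blue and old in orange, with the group mean and SD (n = 3) as black bars. No pair of groups overlaps, and for Cacna1c, Cacna1e and Kcnk6 the young square, replicate 2, is the lowest young point.

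With limma's array weights, 6 members that did not pass with equal weights were called lower, namely Cacna1c (adjusted p = 0.0233), Kcnc4 (0.0354), Kcnk6 (0.0359), Kcns3 (0.0364), Cacnb4 (0.0447) and Cacna1e (0.0452). In that fit 11.3% of members and 9.95% of all probe sets passed. Leaving out young replicate 2 altered which members passed. There, 7 of 106 passed with limma, 4 higher (Scn4b, Kcnt1, Kcnq1ot1 and Kcne3) and 3 lower (Cacna1c, Cacna1e and Kcnk6), which is 6.60% beside 8.35% of all genes (5.73% higher and 2.63% lower). With any other array left out, 1 to 3 passed, all higher, which is 0.943% to 2.83% of members beside 1.14% to 2.49% of all probe sets.

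Partners of these channels outside the name rule were taken from a list of 40 genes, of which 34 were measured. These anchor channels in the membrane, modulate them or form related channels. With limma, 1 rose, 1 fell and 32 did not pass, where 2.45% of all genes were called higher and 2.33% lower. The median difference was -0.0166. Stac, an adaptor of L-type calcium channels, had signals of 7.57, 7.52 and 7.58 in young and 8.16, 7.93 and 7.96 in old arrays, and rose by 0.46 ± 0.09 (limma adjusted p = 0.0257). Ryr3, a calcium release channel of the endoplasmic reticulum, had signals of 7.23, 7.47 and 7.10 in young and 6.04, 6.58 and 6.56 in old arrays, and fell by 0.87 ± 0.16 (limma adjusted p = 0.0218).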

How the data were processed

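RNA of cochlear lateral wall was labelled by 3′ IVT chemistry and hybridised to 1 array per sample, per the labels' protocols. Expression Console (Affymetrix), MAS5 and RMA are listed in the submitters' processing notes, and what each was used for is not given in the sources used here. The authors deposited log2 values for 45101 probe sets on 6 arrays. Array medians were 6.26 to 6.30, so a change common to most genes cannot be seen. With 3 arrays per age, their number limits the precision.

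Control probe sets (64) were left out. GEO's platform annotation gave a single symbol for 34945 probe sets, several for 932 and no entry for 9160. Limma 3.58.1 in R 4.3.3 was fitted to all 45037 probe sets with age as the term, without intensity trend, at an adjusted p of 0.05. Scripts were tested on simulated data.

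The members, families, marker and partner lists were chosen with earlier results of these data known. The rule for named genes takes the called members, the 2 brightest and, where none was called, the smallest p of each family, and a fixed list of which 13 were measured. Alternatives were 3 rescalings, a filter on dim probe sets, trend with robust variance, array weights, a replicate block, a stricter threshold, averaging probe sets, and leaving out each array.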

Additional observations from a re-analysis of the deposited data

How the results depend on the processing

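The 6 calls all stayed when quantile normalization was repeated or arrays were centred on their medians. With cyclic loess the split was 5 higher and 1 lower (Cacna1c), with the dim filter 5 and 1 (Kcnc4) among 35 members tested (17.1%, beside 10.2% of probe sets), and with the replicate block 5 and 1 (Kcns3). Array weights gave 12 calls, 6 of them lower (Cacna1c, Cacna1e, Cacnb4, Kcnc4, Kcnk6 and Kcns3), and 4480 probe sets instead of 2119. An adjusted p of 0.01 left 1 member, higher, and 436 probe sets. Averaging the probe sets of each gene left 3 members, all higher (2.83%, beside 4.97% of genes). An intensity trend with robust variance gave 5 members, all higher and without Scn8a, and 2676 probe sets. Over fits without 1 array the calls were 1 to 7, the higher calls 1 to 4, the lower calls 0 to 3 and the probe sets 515 to 3393. The cause of these changes was not tested.

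Deviations of samples with the same number correlated weakly, at 0.137, 0.075 and 0.008 for replicates 1, 2 and 3. Replicates 1 and 2 of each age correlated best with their own number, and replicate 3 of neither age did. These values do not settle whether the numbers mark a pairing, so the block is not taken as one. With the block 6 members and 1932 probe sets passed.

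Differences of members that were not called changed sign. Cacna1d and Kcnj11 were at -0.021 and -0.0036 with quantile normalization, -0.033 and -0.019 with cyclic loess, and -0.16 and -0.047 with array weights. Array weights also gave -0.079 for Cacna1s, 0.0027 for Kcne4, -0.013 for Kcnj2, -0.0050 for Kcnq3 and 0.034 for Scn7a. Averaged probe sets gave 0.042 for Cacng7, -0.09 for Kcnc1 and 0.024 for Scn7a. Without 1 array, ranges crossed 0 for Cacna1d (-0.19 to 0.19), Cacna1s (-0.10 to 0.09), Cacna2d2 (-0.17 to 0.04), Cacng7 (-0.19 to 0.0050), Kcne4 (-0.17 to 0.072), Kcng4 (-0.01 to 0.14), Kcnh3 (-0.12 to 0.02), Kcnj11 (-0.085 to 0.08), Kcnj2 (-0.037 to 0.043), Kcnq3 (-0.0017 to 0.088) and Scn7a (-0.15 to 0.12).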

Other observations

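Of the 106 channel genes 65 had more than 1 probe set, and 122 probe sets other than the brightest carried their symbols. With limma 1 of these passed, the second of Kcnt1, and 13 lay above the median signal. The genes named here were chosen after their values were seen. For Cacna2d1, the second probe set had signals of 7.14, 7.28 and 7.31 in young and 6.88, 6.83 and 6.43 in old arrays, a difference of -0.53 ± 0.13 (limma adjusted p = 0.0517), where the brightest was at -0.13 ± 0.08. For Cacnb4, the second was at -0.24 ± 0.08 (limma adjusted p = 0.146), close to the -0.30 ± 0.10 of the brightest. The third Cacnb4 probe set was at 0.19 ± 0.15 with overlapping groups, and the mean of the 3 was at -0.12 (limma adjusted p = 0.498). The second Scn8a probe set was at 0.35 ± 0.11 (limma adjusted p = 0.126), with signals of 6.67, 6.46 and 6.82 in young and 7.06, 7.10 and 6.85 in old arrays.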
